A study of Mus musculus with 17 samples.

Results

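The 43 genes described here encode complement and coagulation factors that the liver secretes. They are the complement components, lectin-pathway proteins, clotting factors and fibrinolytic proteins on a list of gene symbols, with serpins and the C1q chains left out. The list uses no measured value, but it was chosen with earlier results of these data known. All 43 were found once each among the 24676 genes of the deposited table, and all 43 passed the filter on low values that left 13379 genes for testing.

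The study measured messenger RNA in whole liver of male mice of mixed strain, labelled as 11 weeks old, in 17 libraries. All mice carried floxed Gata4 alleles and had received an adeno-associated virus of serotype 8 (AAV8) 1 week before. The virus carried Cre under the hepatocyte promoter Tbg in the groups labelled Gata4LKO and was empty in the control groups, so Cre and the loss of Gata4 cannot be told apart. GW3965, an agonist of the liver X receptors (LXR), was given by gavage at 40 mg/kg in canola oil 17 h and 8 h before the end, and the vehicle was dimethylsulfoxide in the same oil. All mice were fasted for 4 h. The groups were control with vehicle (n = 4, libraries 1 to 4), Gata4LKO with vehicle (n = 4, libraries 5 to 8), control with GW3965 (n = 4, libraries 9, 10, 12 and 13) and Gata4LKO with GW3965 (n = 5, libraries 14 to 18). Groups follow the sample titles. A separate treatment label contradicts the title in 8 libraries, which make up the Gata4LKO vehicle and control GW3965 groups, and the series text gives a younger age than the labels. Nothing in the labels says that each library is a separate mouse, so p-values measure the spread between libraries.

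Complement is a cascade of plasma proteases and binding proteins. The classical and lectin pathways recognise surfaces and cleave C4 and C2, the alternative pathway amplifies the cleavage of C3, and the terminal components assemble a pore in the target membrane. Coagulation is a second protease cascade, in which the contact system and tissue factor start reactions that end with thrombin cutting fibrinogen, and plasmin later dissolves the clot. Hepatocytes secrete most of these proteins into plasma, several of them more strongly in inflammation, whereas factor VIII comes mainly from endothelium and properdin mainly from myeloid cells.

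Reads in genes numbered 11.8 to 22.05 M per library. In 5 libraries (control vehicle 1, control GW3965 10 and 13, Gata4LKO GW3965 17 and 18) mitochondrially encoded transcripts took 15.6% to 32.6% of counts, against 6.06% to 7.26% in the other 12. Whole-gene Gata4 counts were 128, 169, 183 and 132 in control vehicle and 181, 137, 234 and 223 in Gata4LKO vehicle, so they were not lower under the label. A whole-gene count does not show whether the floxed exons were lost, and directions for genotype below are those of the libraries labelled Gata4LKO. Of 14 LXR target genes, 12 passed the test as higher with GW3965 in control liver and 6 in Gata4LKO liver. In each genotype 13 of the 14 were higher at an unadjusted limma p below 0.05. The difference between the genotypes' responses was negative for 12 of the 14. For that difference 0 of the 14 were called and 0 had an unadjusted limma p below 0.05. The 2 counts of passing genes thus do not show a weaker response in Gata4LKO liver. As for the liver label, the 6 hepatocyte markers found in the table were all above 0 and summed to 1.23 to 2.12 M normalized counts per library.

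Counts are the authors' normalized counts, read counts divided by a size factor for each library. Differences are on the log2(normalized count + 1) scale with the standard error (SE) from 1 limma fit over all 17 libraries. A gene is called changed when its Benjamini-Hochberg adjusted p over 13379 genes is below 0.05. The 43 members took 3.90% to 5.47% of all counts that were not mitochondrial. The share was 4.82% ± 0.355 (SD, n = 4) in control vehicle, 4.84% ± 0.301 (SD, n = 4) in Gata4LKO vehicle, 4.44% ± 0.440 (SD, n = 4) in control GW3965 and 4.88% ± 0.497 (SD, n = 5) in Gata4LKO GW3965. The groups overlapped in this share.

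Per kilobase of exon, the members spanned almost 3 orders of magnitude. C3, on which the complement pathways converge, stood first at 29158 normalized counts per kb over all libraries. The 3 fibrinogen chains followed at 24804 (Fgg), 24291 (Fga) and 18949 (Fgb) per kb. Hrg, Vtn and Plg came next at 15920, 12883 and 12695 per kb. At the other end stood C2 at 119.7, properdin (Cfp) at 101.2, factor VIII (F8) at 49.6 and factor B (Cfb) at 33.2 per kb. The values of C2 and Cfb are uncertain, because the readthrough gene Gm20547 on the same strand shares 42.8% and 79.5% of their exon bases and reads common to both may not have been counted. Klkb1 shares 43.2% with Gm45753 on its strand and Masp2 54.9% with Tardbp on the other strand. C4b, C1ra, C1s1, Kng1 and Kng2 have near-identical copies, between which reads could be divided.

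**Figure D1:**
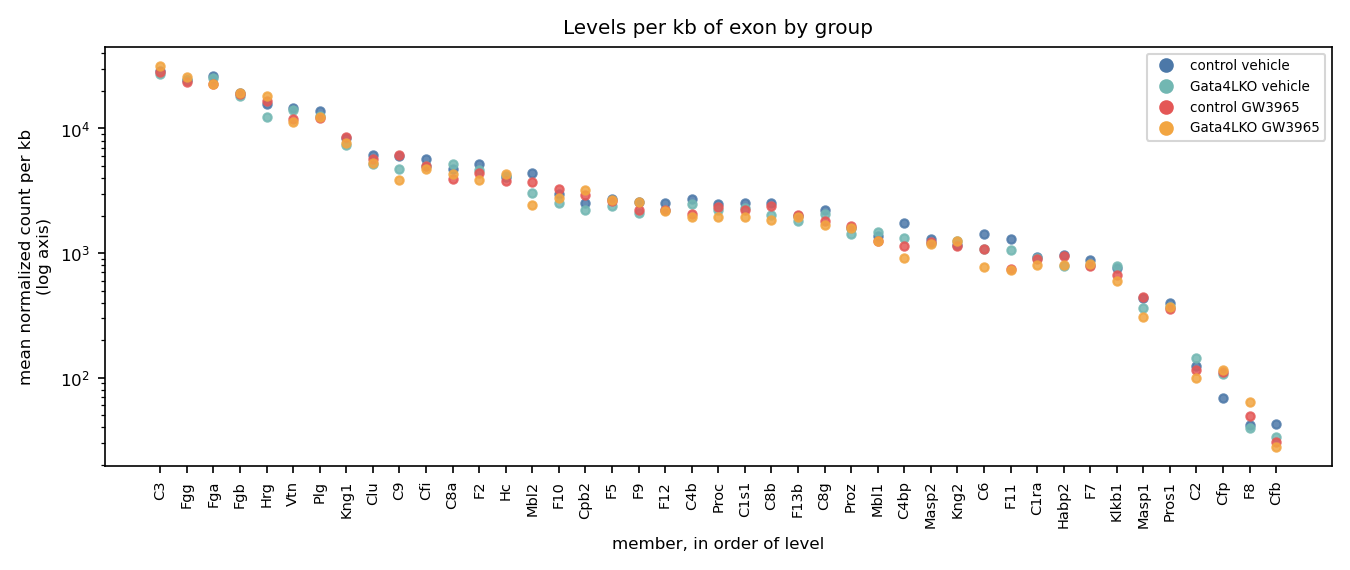
Mean normalized count per kb of exon (log axis) of the 43 members in order of their level, with 1 point for each of the 4 groups. C3 stands highest at 29158 per kb over all libraries and Cfb lowest at 33.2, and the groups lie close together for most members.

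GW3965 was compared with vehicle as the mean of both genotypes and within each. Averaged over genotypes, 2 of the 43 members were called, F11 and C4bp, both lower, where 0.441% of all tested genes were called lower and 1.34% higher. F11 and C4bp were also called in each of the 25 other fits run (other scalings, filters, tools and left-out libraries). In control liver F11 alone was called lower (0.187% of all genes) and 0 members higher (0.605%), and in Gata4LKO liver 0 members were called by limma (0.0448% of all genes lower and 0.202% higher), with 10 at an unadjusted p below 0.05 (1599 of all 13379 genes) and 0 called by edgeR or DESeq2. Of the 43 members, 32 had a negative difference in the mean of both genotypes, with a median of -0.11 against -0.01 over all tested genes. In control liver 33 were negative (median -0.11) and in Gata4LKO liver 25 (median -0.08). Without overlap between the groups, GW3965 libraries were lower for 3 members in control liver (C1s1, F11 and Plg, 2.71% of all genes) and higher for 0 (3.13%). In Gata4LKO liver they were lower for 4 (C1s1, C4bp, Proc and F11, 2.34%) and higher for 1 (Cpb2, 2.91%).

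F11 encodes factor XI, a plasma protease activated by factor XIIa and thrombin that in turn activates factor IX. Its gene lies at chr8:45241174-45262031 of mm10, on the minus strand. With vehicle its normalized counts were 2813, 3017, 2927 and 2755 in control liver and 2211, 2144, 2818 and 2381 in Gata4LKO liver. With GW3965 they were 1709, 1644, 1248 and 2063 in control liver and 1507, 2088, 1039, 2027 and 1539 in Gata4LKO liver. Every GW3965 library was below every vehicle library. F11 was the only member whose 9 GW3965 libraries did not overlap the 8 vehicle libraries, as was the case for 0.0747% of all genes in that direction and 0.344% in the other. The difference was -0.69 ± 0.13 (SE) in the mean of both genotypes, 0.618-fold with a 95% interval of 0.513 to 0.744 (limma adjusted p = 0.0070). Within control liver it was -0.81 ± 0.18 (limma adjusted p = 0.0492) and within Gata4LKO liver -0.58 ± 0.18 (limma adjusted p = 0.210). The call within control liver was lost in 12 of 17 other fits, where its limma, edgeR and DESeq2 adjusted p ranged from 0.00535 to 0.161 over all 17. It was lost when any of the 8 libraries compared was left out except control GW3965 13, without which the difference was -0.92 (limma adjusted p = 0.0316). The 2 differences did not pass a test against each other (0.23 ± 0.25, limma adjusted p = 0.997). Gm5345, a gene 4.39 Mb from F11, was at 0 to 1.64 normalized counts in Gata4LKO vehicle and in control GW3965 9 and 10, and at 23.1 to 101.3 in all other libraries. Within control GW3965, F11 was 1709 and 1644 in the 2 libraries with Gm5345 near 0 and 1248 and 2063 in the others. Genotype with vehicle, and GW3965 in Gata4LKO liver, cannot be told apart from the state of Gm5345.

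Klkb1, which encodes plasma prekallikrein, lies 4.66 kb from F11 on the same strand. Counts per library were 3777, 4326, 3628 and 4124 in control vehicle, 4356, 3897, 4174 and 3975 in Gata4LKO vehicle, 4272, 3475, 3226 and 2964 in control GW3965, and 3450, 3961, 2760, 3045 and 2469 in Gata4LKO GW3965. Several GW3965 libraries were low, but library 9 was among the highest of all, so the groups overlapped. The difference with GW3965 was -0.30 ± 0.10 (SE, limma adjusted p = 0.131) in the mean of both genotypes, short of the threshold.

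The remaining contact-system members did not pass either. F12, the protease that starts the contact pathway, differed by -0.13, and the kininogens Kng1 and Kng2, from which bradykinin is released, by 0.03 and -0.01 in the mean of both genotypes.

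C4bp encodes C4b-binding protein, a cofactor with which factor I inactivates C4b. It lies at chr1:130634773-130661632 on the minus strand. Its normalized counts were 7745, 13703, 14094 and 11280 in control vehicle and 8298, 9232, 9349 and 8881 in Gata4LKO vehicle. They were 8405, 7921, 7626 and 6889 in control GW3965 and 7090, 7329, 6259, 5130 and 4959 in Gata4LKO GW3965. In Gata4LKO liver the GW3965 libraries were all below the vehicle libraries. In control liver the groups overlapped through control vehicle 1, a library with a high mitochondrial share, which stood far below the other control vehicle libraries. The difference was -0.56 ± 0.12 (SE), 0.677-fold with a 95% interval of 0.572 to 0.803, in the mean of both genotypes (limma adjusted p = 0.0164). It was -0.57 in control and -0.56 in Gata4LKO liver (limma adjusted p = 0.184 and 0.176). C4bp was lower in the 5 libraries of high mitochondrial share (median 6889) than in the other 12 (median 8643), and its call held without those 5. The authors' deposited values for GW3965 in control liver, from the same libraries, also put F11 and C4bp past an adjusted p of 0.05. Their log2 fold changes there were -0.79 and -0.60, and 221 of 13655 genes with an adjusted p (1.62%) passed. In Gata4LKO liver the authors' values put 0 of the 43 members past it, where 1.33% of genes passed. The authors' adjusted p there was 0.123 for F11 and 0.0711 for C4bp.

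Gata4LKO was compared with control in the same way. As the mean of both treatments, 1 member was called, Mbl2, lower, where 0.179% of all genes were called lower and 0.0448% higher. With vehicle alone (0.0149% of all genes called lower and 0% higher) and with GW3965 alone (0.0448% lower and 0.0149% higher), limma called 0 members. At an unadjusted p below 0.05 there were 3 members with vehicle, where 6.15% of all genes were, and 6 with GW3965, where 6.47% of all genes were. The count with vehicle is thus near the background. On the recovered reads edgeR called 0 in both. DESeq2 called 0 with vehicle and 1, Mbl2, with GW3965, a fit whose share of all genes called is not given here. With vehicle 36 of 43 members had a negative difference (median -0.13, all genes -0.01), and with GW3965 29 of 43 (median -0.07, all genes -0.01). Without overlap, Gata4LKO libraries were lower with vehicle for 6 members (C1s1, Mbl2, Masp1, F9, Plg and Habp2, 3.58% of all genes) and higher for 1 (Cfp, 3%). With GW3965 they were lower for 1 (Mbl2, 1.14%) and higher for 0 (0.822%). Over both treatments together, 0 members were apart between all Gata4LKO and all control libraries (0.0747% of all genes lower and 0.0374% higher). The vehicle comparison of genotypes shares its control libraries with the GW3965 comparison in control liver, in which 33 of 43 members were negative. The summed hepatocyte markers were 1.71 to 1.87 M in control vehicle, 1.35 to 1.58 M in Gata4LKO vehicle, 1.42 to 2.12 M in control GW3965 and 1.23 to 1.59 M in Gata4LKO GW3965. Such sums weigh the most abundant markers most. Singly, the 6 markers differed between genotypes by -0.57 to -0.01 with vehicle (median -0.16) and by -0.54 to 0.07 with GW3965 (median -0.14). At each treatment 1 of the 6 had an unadjusted limma p below 0.05. Their part in the members' differences was not tested, and in whole liver fewer cells of a type and less RNA per cell cannot be told apart. Without the 5 libraries of high mitochondrial share, 33 members were negative between genotypes with vehicle and 38 in the GW3965 comparison in control liver. Between genotypes with GW3965, 24 were then negative and 19 positive (median -0.04), against 29 negative with all libraries.

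Mbl2 encodes mannose-binding lectin C, which recognises sugars on microbes and starts the lectin pathway. It lies at chr19:30232942-30239687 on the plus strand. Its normalized counts were 6054, 4865, 4207 and 4029 in control vehicle and 3228, 2941, 3724 and 3372 in Gata4LKO vehicle. With GW3965 they were 3702, 3639, 3834 and 5035 in control liver and 2492, 2385, 2259, 3116 and 2932 in Gata4LKO liver. At each treatment every Gata4LKO library was below every control library. The difference was -0.57 ± 0.10 (SE), 0.675-fold with a 95% interval of 0.583 to 0.782, in the mean of both treatments (limma adjusted p = 0.0262). It was -0.52 ± 0.15 with vehicle and -0.62 ± 0.14 with GW3965 (limma adjusted p = 0.390 and 0.137). The call in the mean held in 19 of 25 other fits, where the adjusted p ranged from 0.000108 to 0.0675. Leaving out control vehicle 2, Gata4LKO vehicle 5 or 8, control GW3965 12 or Gata4LKO GW3965 14 or 15 ended it, with differences of -0.55 to -0.58. The authors' deposited table gave -0.62 with GW3965 (adjusted p = 0.0145) and -0.53 with vehicle (adjusted p = 0.102). With vehicle, Gm5345 was at 0 to 1.64 in all Gata4LKO libraries and at 30.3 to 66.0 in all control libraries. The state of Gm5345 and genotype cannot be told apart there. Within control GW3965, Mbl2 was 3702 and 3639 in libraries 9 and 10, with Gm5345 near 0, and 3834 and 5035 in the others.

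The other lectin-pathway members were Mbl1, Masp1 and Masp2. Masp1, a protease bound to the lectins, had normalized counts of 4707, 4154, 4056 and 4256 in control vehicle, 3392, 3742, 3859 and 3127 in Gata4LKO vehicle, 3883, 5035, 3464 and 5197 in control GW3965, and 2761, 2890, 2360, 3958 and 3182 in Gata4LKO GW3965. The genotypes were apart with vehicle and overlapped with GW3965. The difference was -0.41 ± 0.10 (SE) in the mean of both treatments and did not pass (limma adjusted p = 0.148). Without Gata4LKO GW3965 17 it did, and that fit called 2 members, Mbl2 and Masp1, and 57 of all 13379 genes. Mbl1, the gene of mannose-binding lectin A, differed by 0.05 and Masp2, the protease that cleaves C4, by -0.09, both short of the threshold. Per kb, the ratio of Mbl1 to Mbl2 was 0.272 to 0.351 in control vehicle and 0.432 to 0.585 in Gata4LKO vehicle, without overlap. With GW3965 it was 0.242 to 0.483 in control and 0.292 to 0.798 in Gata4LKO liver, and the groups overlapped.

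**Figure D2:**
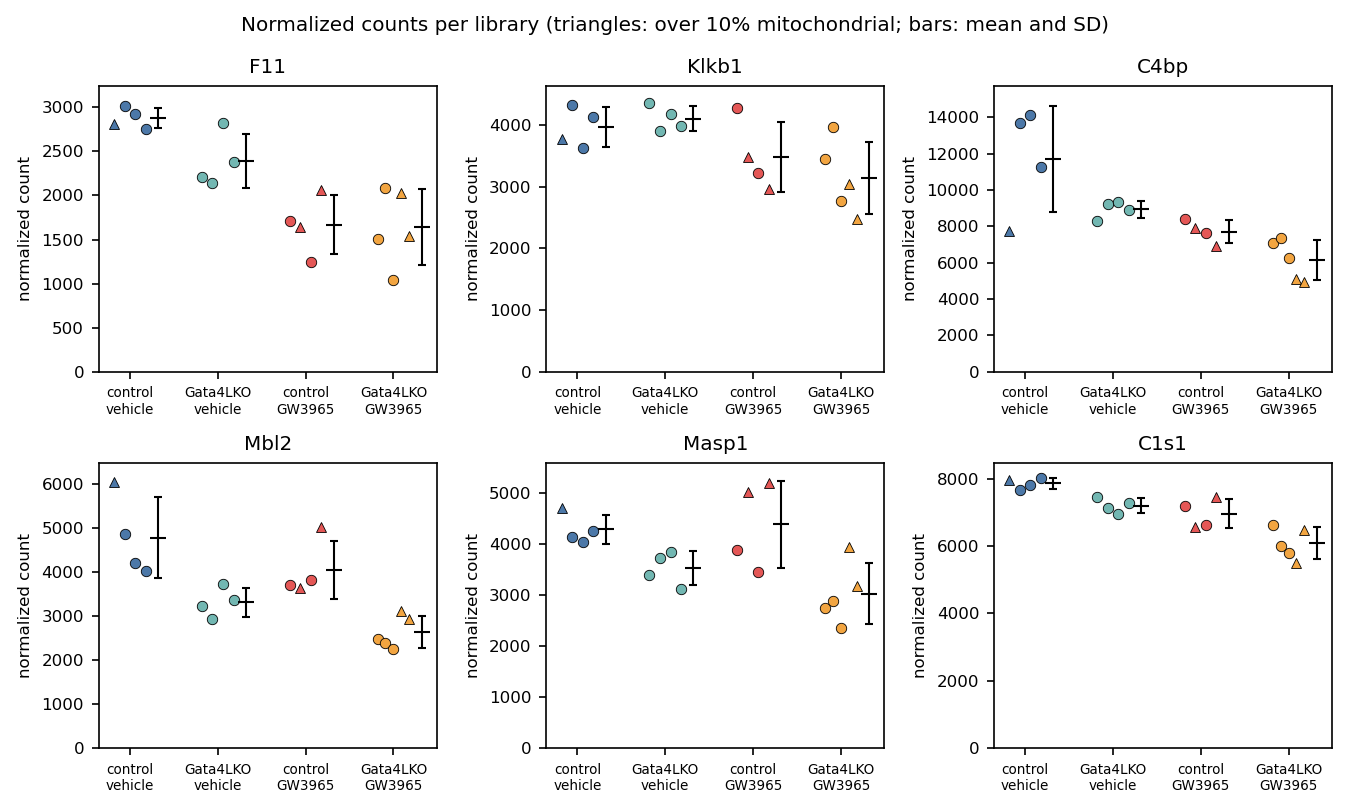
Normalized counts of 6 members in each library (circles; triangles mark libraries with over 10% mitochondrial counts), by group, with the mean and SD of each group in black. The F11 points with GW3965, at most 2088, lie below all vehicle points, at least 2144, and the Mbl2 points of Gata4LKO lie below those of control at each treatment.

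The promoters of the called members are printed so that they can be compared with those of the 3 fibrinogen genes, which are among the most abundant members. Each runs from 250 bases before to 50 bases after the gene start (RefSeq, GRCm38.p6), 5′ to 3′ on the gene's strand. Capitals mark matches, on either strand, of GTTAAT, a half-site of the hepatocyte factor HNF1. They also mark AGATAA, a motif of GATA factors, and AGGTCA, the half-site of nuclear receptors such as LXR, or the reverse complement of each. The motifs do not overlap one another in these windows.
F11 (chr8:45261982-45262281, minus strand): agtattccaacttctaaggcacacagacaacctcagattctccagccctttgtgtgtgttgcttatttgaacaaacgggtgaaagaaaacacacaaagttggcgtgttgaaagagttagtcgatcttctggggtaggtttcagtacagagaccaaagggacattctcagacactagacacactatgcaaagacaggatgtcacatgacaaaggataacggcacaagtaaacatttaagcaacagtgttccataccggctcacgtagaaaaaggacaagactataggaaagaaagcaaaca
C4bp (chr1:130661569-130661868, minus strand): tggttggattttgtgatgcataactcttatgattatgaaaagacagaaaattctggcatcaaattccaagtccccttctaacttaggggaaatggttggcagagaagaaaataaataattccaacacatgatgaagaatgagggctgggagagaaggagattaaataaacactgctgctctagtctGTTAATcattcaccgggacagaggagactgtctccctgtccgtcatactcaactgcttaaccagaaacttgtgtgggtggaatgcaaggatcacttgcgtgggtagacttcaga
Mbl2 (chr19:30232678-30232977, plus strand): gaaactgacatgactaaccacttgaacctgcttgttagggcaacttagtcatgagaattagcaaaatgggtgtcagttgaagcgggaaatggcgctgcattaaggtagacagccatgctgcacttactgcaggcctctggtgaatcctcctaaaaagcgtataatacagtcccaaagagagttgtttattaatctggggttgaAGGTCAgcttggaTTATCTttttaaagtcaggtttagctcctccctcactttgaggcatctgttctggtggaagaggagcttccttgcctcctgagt
Fga (chr3:83025903-83026202, plus strand): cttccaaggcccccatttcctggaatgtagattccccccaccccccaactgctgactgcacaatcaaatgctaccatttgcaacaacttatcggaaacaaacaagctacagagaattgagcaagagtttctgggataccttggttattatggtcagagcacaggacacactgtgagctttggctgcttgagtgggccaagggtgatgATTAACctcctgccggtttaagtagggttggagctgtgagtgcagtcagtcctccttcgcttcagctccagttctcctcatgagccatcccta
Fgb (chr3:83049814-83050113, minus strand): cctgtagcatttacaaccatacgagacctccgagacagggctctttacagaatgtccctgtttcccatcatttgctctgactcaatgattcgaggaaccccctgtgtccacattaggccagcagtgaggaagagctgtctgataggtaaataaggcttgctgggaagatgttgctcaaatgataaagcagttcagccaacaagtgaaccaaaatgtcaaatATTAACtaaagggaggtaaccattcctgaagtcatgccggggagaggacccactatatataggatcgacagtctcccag
Fgg (chr3:83007474-83007773, plus strand): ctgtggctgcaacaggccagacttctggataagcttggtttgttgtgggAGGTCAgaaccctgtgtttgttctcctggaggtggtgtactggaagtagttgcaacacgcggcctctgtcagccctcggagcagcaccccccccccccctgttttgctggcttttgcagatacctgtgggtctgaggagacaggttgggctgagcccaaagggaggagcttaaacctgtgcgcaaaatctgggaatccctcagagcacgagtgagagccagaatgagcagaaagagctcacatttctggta

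Promoters were found for 34 of the 43 members. GTTAAT was present in 13 of these 34 (38.2%), against 7.20% of 27025 promoters of the same length. In C4bp it begins 64 bases before the start, in Fga 43 and in Fgb 29, and the Fgg window does not hold it. AGGTCA was present in 12 of 34 (35.3%, against 4335 of all 27025 promoters), Mbl2 and Fgg included; in Mbl2 it begins 47 bases before the start. AGATAA was present in 2 of 34 (5.88%, against 11.4%), Mbl2 and C6, and begins 34 bases before the start of Mbl2. Only this exact spelling was searched and marked. Close variants were not, such as TGATAA, which the Fgb window holds. A direct repeat of AGGTCA with 4 bases between the copies, the element known for LXR, was in 0 of 34 and in 0.0111% of all promoters. An exact match so rare could hardly be met in 34 promoters, so its absence does not show that LXR elements are lacking. The F11 window held none of the 3 short motifs. These are matches of letters in one window, not measured binding.

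**Figure D3:**
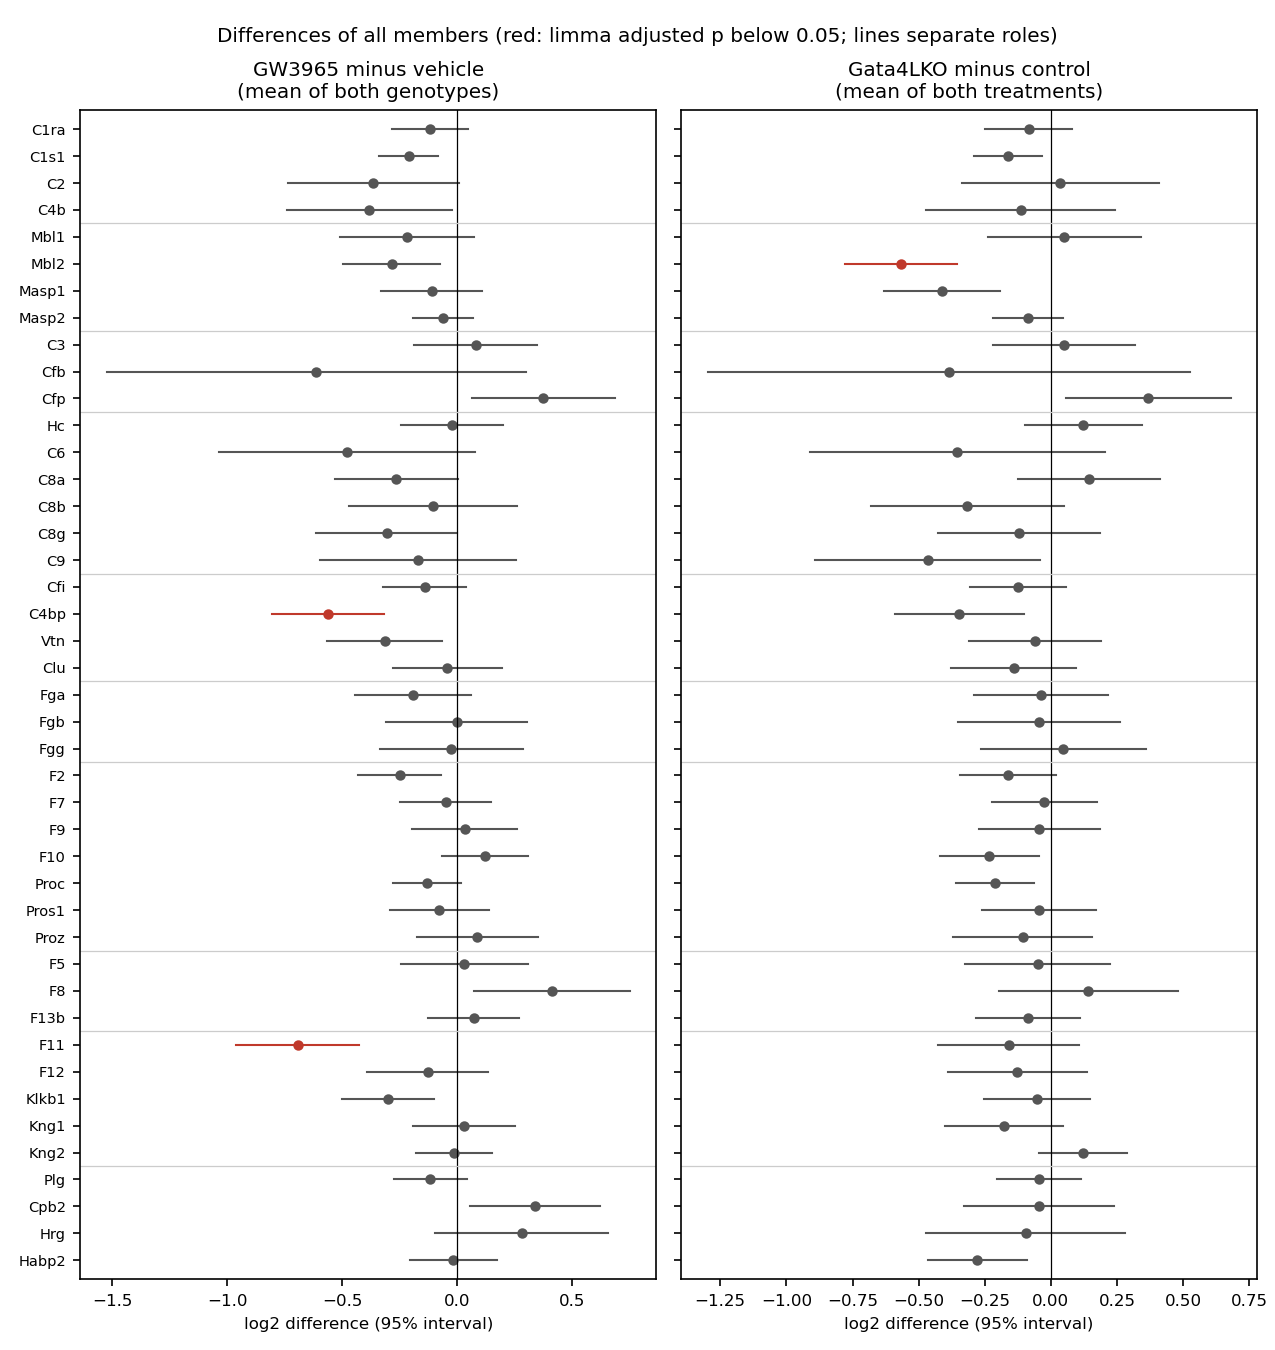
Log2 differences of the 43 members (points) with 95% intervals (lines) for GW3965 minus vehicle (left) and Gata4LKO minus control (right), ordered by role. F11 at -0.69 and C4bp at -0.56 on the left and Mbl2 at -0.57 on the right are the 3 in red, with a limma adjusted p below 0.05.

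Among the early components of the classical pathway, the 4 members (C1ra, C1s1, C2, C4b) all had negative differences with GW3965 in the mean of both genotypes, from -0.12 for C1ra to -0.38 for C4b, and none passed. C1s1, a protease of the C1 complex that cleaves C4 and C2, varied little between replicates. In normalized counts it had 7950, 7668, 7802 and 8024 in control vehicle, 7451, 7116, 6953 and 7273 in Gata4LKO vehicle, 7195, 6570, 6624 and 7447 in control GW3965, and 6613, 6013, 5804, 5490 and 6488 in Gata4LKO GW3965. Control vehicle was above Gata4LKO vehicle and above control GW3965 without overlap, and Gata4LKO GW3965 was lowest on average. The difference with GW3965 was -0.21 ± 0.06 (SE, limma adjusted p = 0.0956). DESeq2 on the recovered reads called it lower, together with F11 and C4bp, in a fit whose share of all genes called is not given here.

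C3 itself, the most abundant member, had 125119 to 167137 normalized counts in control vehicle and 126624 to 209469 in Gata4LKO GW3965, with overlapping groups. Its difference was 0.08 ± 0.13 (SE) with GW3965 and 0.05 ± 0.13 with genotype, neither past the threshold (limma adjusted p = 0.781 and 0.989). Factor B (Cfb), the protease of the alternative C3 convertase, ranged from 19 to 174, with wide and overlapping groups. Its lowest libraries were the 5 of high mitochondrial share, at 19 to 63, with Gata4LKO vehicle 6 at 34 and Gata4LKO GW3965 16 at 27. The last 2 libraries also had the fewest genes above 0, 15515 and 15601. The part of these library properties in the Cfb counts was not tested.

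Cfp encodes properdin, which stabilises the alternative convertase. Properdin counts were 96, 135, 113 and 131 in control vehicle, 176, 194, 181 and 188 in Gata4LKO vehicle, 232, 200, 224 and 113 in control GW3965, and 196, 237, 245, 137 and 193 in Gata4LKO GW3965. Control vehicle was the low group, below all Gata4LKO vehicle libraries. The difference was 0.65 ± 0.22 (SE) for genotype with vehicle and 0.65 ± 0.22 for GW3965 in control liver, comparisons that share the control vehicle libraries, and neither passed (limma adjusted p = 0.515 and 0.259). Summed counts of 12 Kupffer cell and macrophage markers moved with it: 2640 to 3650 in control vehicle, 4459 to 5349 in Gata4LKO vehicle, 4324 to 7210 in control GW3965 and 4577 to 6830 in Gata4LKO GW3965. All 12 markers were above 0 in some library, 12 of 12 had a positive difference between genotypes with vehicle, and 11 of 12 with GW3965 in control liver. In the same 2 comparisons 9 of 9 sinusoidal endothelial markers were positive too (medians 0.09 and 0.26), against macrophage medians of 0.56 and 0.47. Of 10 stellate cell and fibroblast markers, 5 and 6 were positive. The part of these cell types in the Cfp difference was not tested.

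The 6 terminal components (Hc, C6, C8a, C8b, C8g, C9) had negative differences with GW3965 in the mean of both genotypes, from -0.02 for Hc, the gene of C5, to -0.48 for C6, and none passed. Within each genotype 5 of the 6 were negative, with C9 at 0.01 in control liver and Hc at 0.06 in Gata4LKO liver. C6 and C9, parts of the membrane attack complex, varied most. C6 ranged from 2301 to 7597 within control vehicle and from 1929 to 7026 within control GW3965. C9 ranged from 9925 to 21228 and from 9571 to 25318 in the same groups. For genotype, C9 differed by -0.47 ± 0.20 (SE, limma adjusted p = 0.617) in the mean of both treatments. The genes C8a and C8b encode chains of the C8 complex and lie 11.1 kb apart on opposite strands. Their ratio per kb was 1.55 to 2.15 in control vehicle and 2.24 to 2.82 in Gata4LKO vehicle, 1.37 to 1.85 in control GW3965 and 2.16 to 2.86 in Gata4LKO GW3965. The Gata4LKO libraries thus had more C8a relative to C8b at each treatment, without overlap. This ratio was singled out after its values were seen and was not tested.

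Of the complement regulators besides C4bp, factor I (Cfi), which cleaves C3b and C4b, differed by -0.14 with GW3965 and by -0.12 with genotype. Vitronectin (Vtn) and clusterin (Clu), plasma proteins that block the membrane pore, differed by -0.32 and -0.04 with GW3965. None of these passed. Vtn was 14547 in Gata4LKO GW3965 17 and 20388 to 33172 in all other libraries.

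The 3 fibrinogen chains, which are secreted as 1 hexameric protein, did not pass in any comparison. With GW3965 they differed by -0.19 (Fga), -0.00 (Fgb) and -0.03 (Fgg) in the mean of both genotypes, and with genotype by -0.04, -0.05 and 0.05. Fga ranged from 56002 to 95996 normalized counts, Fgb from 51690 to 107305 and Fgg from 38158 to 86378. The genes lie together on chromosome 3, and the ratio of Fgb to Fgg per kb stayed between 0.652 and 0.849 over the 17 libraries. The ratio of Fga to Fgg ran from 0.642 to 1.15 and was lowest in Gata4LKO GW3965 17.

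The 7 vitamin K-dependent members are proteins whose glutamates are carboxylated before secretion. Between genotypes all 7 had a negative difference in the mean of both treatments, from -0.02 for F7 to -0.23 for F10, and none passed. Prothrombin (F2) was the most abundant of them. It had normalized counts of 20915, 25145, 24195 and 24193 in control vehicle, 20992, 22661, 21042 and 21096 in Gata4LKO vehicle, 19986, 21318, 20841 and 18638 in control GW3965, and 19780, 18660, 21062, 14404 and 15467 in Gata4LKO GW3965. The groups overlapped, and the lowest libraries were Gata4LKO GW3965 17 and 18. The difference was -0.25 ± 0.09 (SE, limma adjusted p = 0.172) with GW3965. With GW3965, F7, F9, F10, the protein C cofactor protein S (Pros1) and protein Z (Proz) differed by -0.05, 0.03, 0.12, -0.08 and 0.09, none past the threshold. The anticoagulant protease protein C (Proc) differed by -0.21 ± 0.07 (limma adjusted p = 0.355) with genotype. F9, factor IX, had the smallest unadjusted p for a genotype-dependent response to GW3965, a difference of 0.47 ± 0.22 between responses. It did not pass (limma adjusted p = 0.997). In that comparison limma, edgeR and DESeq2 each called 0 members, with 0.0149% of all genes called higher and 0% lower by limma and 1 member at an unadjusted p below 0.05, where 4.65% of all genes were.

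F8 and F5 encode the cofactors of the factor X-activating and the prothrombin-activating complex, and F13b the carrier chain of the fibrin cross-linking enzyme. F8 had normalized counts of 523, 363, 387 and 389 in control vehicle, 416, 357, 393 and 406 in Gata4LKO vehicle, 323, 465, 623 and 538 in control GW3965, and 628, 518, 374, 965 and 685 in Gata4LKO GW3965. The highest libraries were all from GW3965 groups, but the groups overlapped. The difference was 0.41 ± 0.16 (SE, limma adjusted p = 0.231) in the mean of both genotypes and 0.62 ± 0.22 (limma adjusted p = 0.296) in Gata4LKO liver. F5, more abundant, ranged from 14599 to 26958 and differed by 0.03 with GW3965 and -0.05 with genotype, and F13b by 0.07 and -0.09, all short of the threshold. Summed counts of 9 sinusoidal endothelial markers were 3939 to 4848 in Gata4LKO vehicle and 4500 to 6520 in Gata4LKO GW3965, and 9 of 9 had a positive difference there, with a median of 0.42. This was not particular to endothelium. Positive too were 10 of 10 stellate cell and fibroblast markers (median 0.51) and 4 of 4 cholangiocyte markers (median 0.47). Kupffer cell and macrophage markers were divided, with 6 of 12 positive (median 0.06). The part of these cell types in the F8 difference was not tested. Without the libraries of high mitochondrial share the F8 difference in Gata4LKO liver was 0.34.

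Plasminogen (Plg), the precursor of the clot-dissolving protease, ranged from 39988 to 52992 normalized counts and differed by -0.12 with GW3965 and -0.04 with genotype. Habp2, a protease that can activate factor VII, differed by -0.28 ± 0.09 (SE, limma adjusted p = 0.320) with genotype. Cpb2, a carboxypeptidase that slows fibrinolysis, differed by 0.34 ± 0.14 (SE, limma adjusted p = 0.240) with GW3965. Its normalized counts were 3115, 3738, 3833 and 3761 in Gata4LKO vehicle and 3991, 3911, 5227, 8091 and 4683 in Gata4LKO GW3965, without overlap. Cpb2 was also higher in the 5 libraries of high mitochondrial share (median 5247) than in the other 12 (median 3797). Without those 5 its difference with GW3965 was -0.0068 in control liver, against 0.21, and 0.27 in Gata4LKO liver, against 0.47.

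Some members differed between libraries of high and lower mitochondrial share, in numbers near the shares of all genes. Between the 5 libraries of high share and the other 12, 4 members were higher without overlap (Hrg, F5, Proz, F10), where 6.05% of all genes were, and 3 were lower (C2, C4b, C8g), where 4.44% of all genes were. Hrg, a histidine-rich plasma glycoprotein that binds heparin and plasminogen, had 39214 to 56988 normalized counts in the 5 libraries and 22346 to 29364 in the 12. C4b had 5692 to 11632 in the 5 and 12015 to 17976 in the 12. C2 had 275 to 350 in the 5 and 363 to 641 in the 12. The 5 libraries fall unevenly over the groups, with 1 in control vehicle, 0 in Gata4LKO vehicle, 2 in control GW3965 and 2 in Gata4LKO GW3965. Hrg differed by 0.50 ± 0.25 (SE) with GW3965 in Gata4LKO liver, where only the GW3965 group holds such libraries, and by 0.15 without them. C2 differed by -0.58 ± 0.24 in that comparison and by -0.35 without them. Without these 5 libraries limma called 4 members for GW3965 in the mean of both genotypes, namely C4bp, F11, Mbl2 (lower) and Cfp (higher), and 186 of all 13379 genes.

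**Figure D4:**
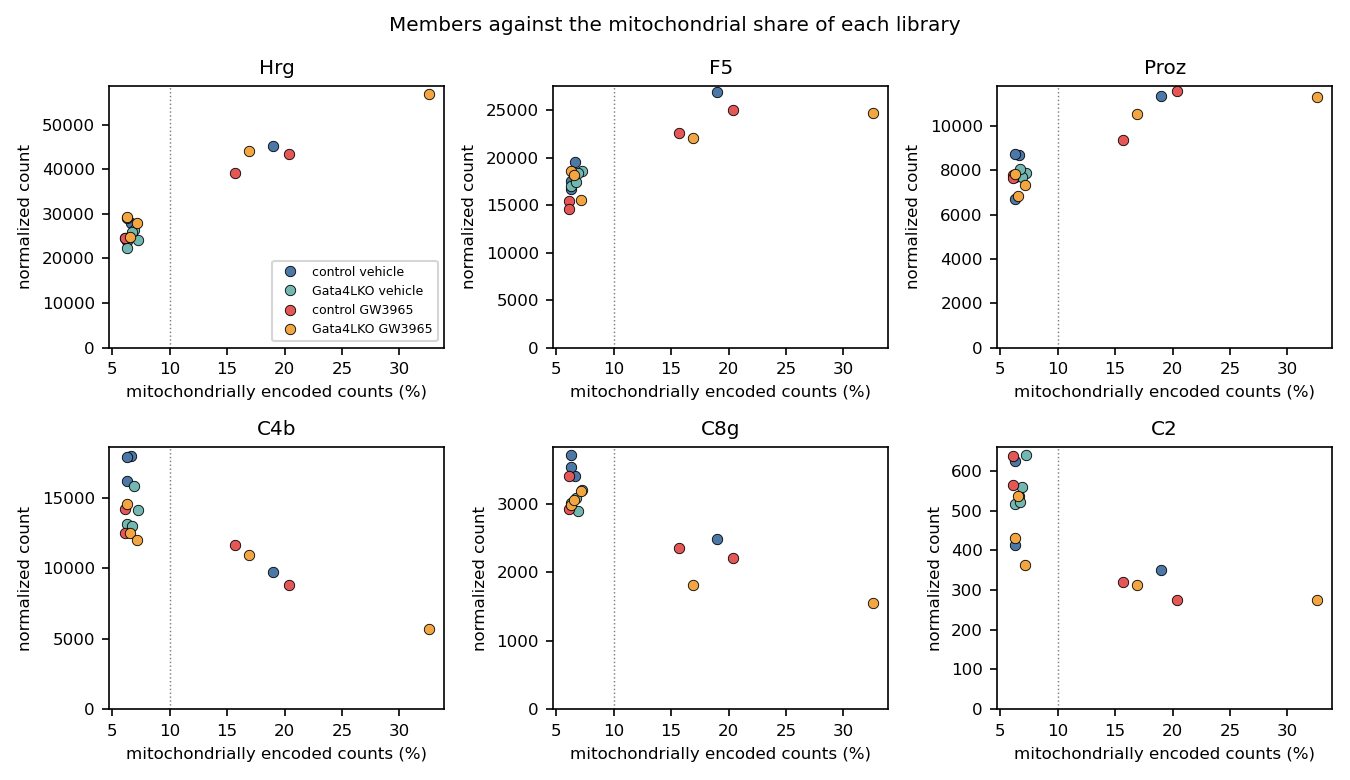
Normalized counts of 6 members (vertical axes) against the percent of counts that were mitochondrially encoded (horizontal axes), 1 point per library, coloured by group, with a dotted line at 10%. Hrg, F5 and Proz are higher and C4b, C8g and C2 lower in all 5 libraries to the right of the line than in the 12 to its left.

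**Figure D5:**
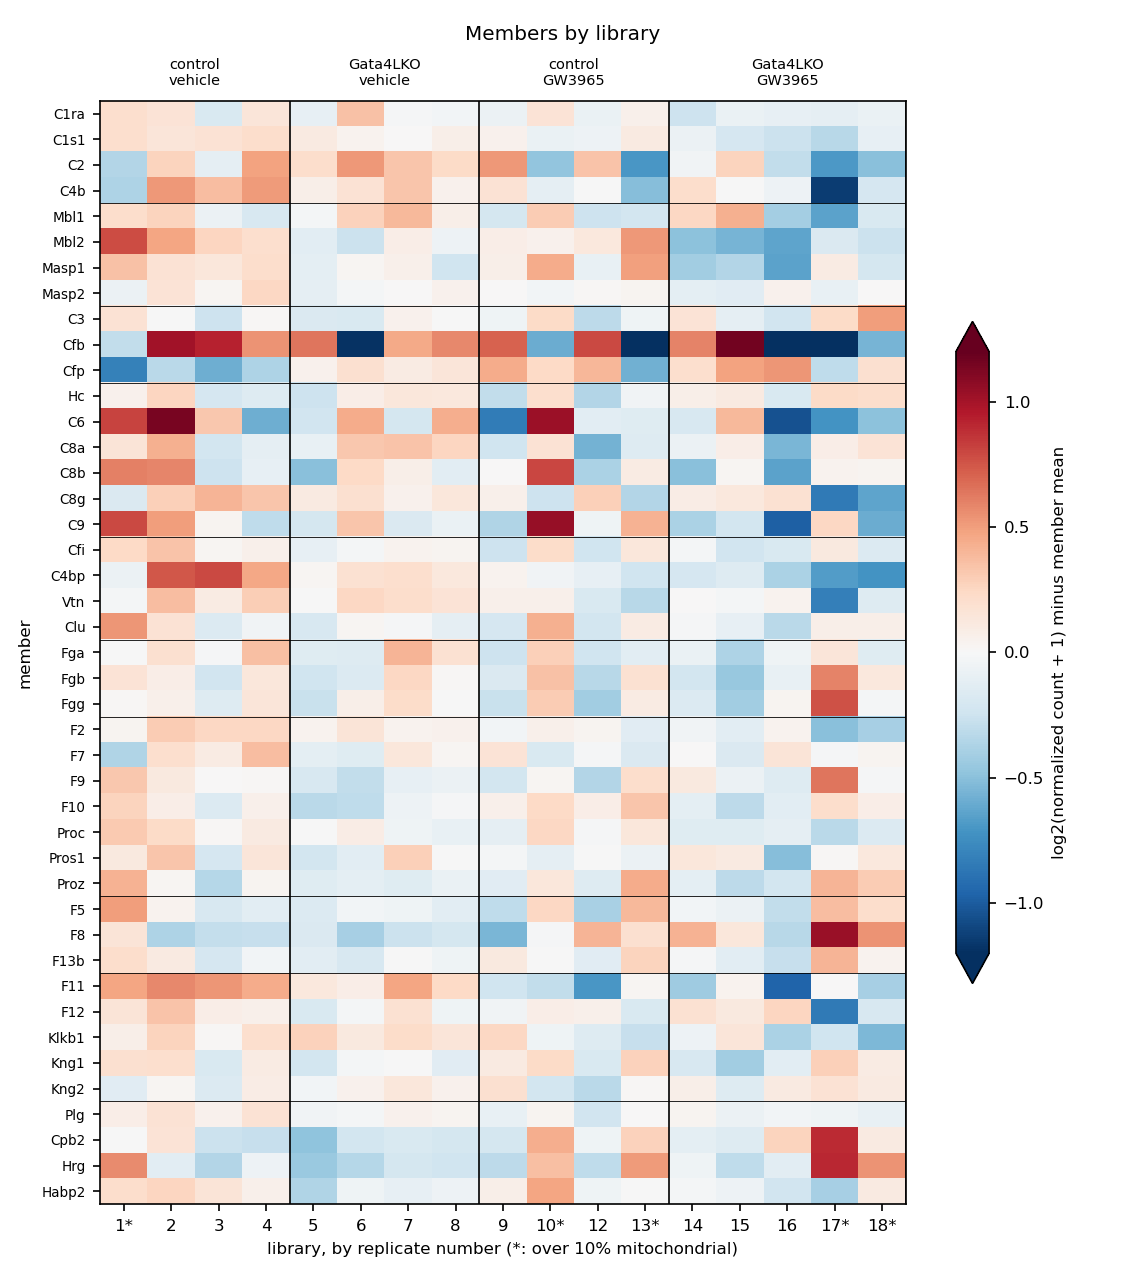
Log2(normalized count + 1) of each member minus its mean over the 17 libraries, in rows by role and in columns by group, with libraries of over 10% mitochondrial counts starred and colours saturated beyond 1.2 in either direction. F11 runs from red to nearly white with vehicle and from nearly white to blue with GW3965. Gata4LKO GW3965 17 holds deep colours in many rows, among them C4b (5692), Vtn (14547) and Fgg (86378).

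Other genes of the same pathways, among them receptors, serpin inhibitors, C1q chains and factors of other cell types, make up a list of 57, of which 43 were tested. For GW3965 in the mean of both genotypes 1 was called, Serpina10, lower. It encodes the protein Z-dependent inhibitor of factor Xa, which also inhibits factor XIa. Its normalized counts were 1992, 3774, 3429 and 3400 in control vehicle, 2756, 2760, 3653 and 3208 in Gata4LKO vehicle, 2616, 1904, 2140 and 1573 in control GW3965, and 2605, 2481, 2022, 1393 and 1756 in Gata4LKO GW3965. All GW3965 libraries were below all vehicle libraries but control vehicle 1, the one of high mitochondrial share. The difference was -0.61 ± 0.15 (SE, limma adjusted p = 0.0452). Procr, the endothelial protein C receptor, had 2.2 to 15.8 normalized counts with vehicle and 10.9 to 40.5 with GW3965 and differed by 1.31 ± 0.34 (limma adjusted p = 0.0593). C4a, the near-identical copy of C4b, differed by -1.02 ± 0.50 with GW3965 in Gata4LKO liver and tissue factor (F3) by 0.87 ± 0.39 in control liver, and neither passed.

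Fibrinogen and several complement components are also acute-phase proteins, so a list of 21 other acute-phase genes is given beside them. With GW3965 in control liver 20 of the 21 had a negative difference (median -0.45), against 33 of 43 members (median -0.11). In the difference between the genotypes' responses 21 of 21 were positive (median 0.56), against 26 of 43 members (median 0.05), the 3 fibrinogen chains among them at 0.04 to 0.12. Of the 21, 0 were called there and 4 had an unadjusted limma p below 0.05, where 4.65% of all genes had. Between genotypes with vehicle 19 of the 21 were negative (median -0.30). These 3 comparisons share the control vehicle libraries, and comparisons without those libraries differed. Between genotypes with GW3965, 16 of the 21 were positive (median 0.20) and 1 was called higher, where 0.0149% of all genes were. With GW3965 in Gata4LKO liver, 11 were positive and 10 negative (median 0.12).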

How the data were processed

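The authors deposited normalized counts for 17 libraries and 5 comparison tables. STAR 2.6.0c, the mm10 build, FastQC and DESeq2 are named, per the submitters' processing notes. RNA extraction used TRIzol and RNeasy, and library preparation a KAPA mRNA kit, per the labels' protocols. The counting program, its annotation and its strand use were not given in the sources used here. Deposited normalized counts are a signal, and each is a whole number of reads (100% of values within 0.05 read) divided by the size factor of its library. The authors' tables hold, for each gene, a p-value, an adjusted p-value and a log2 fold change.

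Genes reaching 10 normalized counts in 4 or more libraries were tested with limma 3.58.1 (trend) in R 4.3.3 on log2(normalized count + 1), 1 coefficient per group, with Benjamini-Hochberg adjustment. A fold change on this scale understates the change of low genes. The script was tested on simulated counts. Alternatives were pseudocounts of 0.5 and 5, no filter, TMM scaling, array quality weights, fits of only the groups compared, fits without libraries over 10% mitochondrial, each library left out, and edgeR 4.0.16 and DESeq2 1.42.0 on recovered reads. Positions and exon lengths came from GENCODE M21, and promoters from RefSeq.

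The members and lists were chosen with earlier results of these data known. Members were named when called in any comparison, when among the 3 most positive or 3 most negative of a pairwise comparison, or when the most abundant of their role. Of other pathway genes, those called and the 3 with the largest difference in each pairwise GW3965 comparison were named. One gene under this rule is not reported here. Klkb1, Masp1, C1s1, F2, Proc, Habp2, C8a, C8b, C6 and Vtn were given further values after these had been seen, to show neighbours, spread or gaps between groups.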

Additional observations from a re-analysis of the deposited data

Results flagged for a closer look

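Within groups of 4 or 5 libraries, 14 of 172 combinations of member and group had 1 library far from the others by Dixon's criterion. Chance flags about 1 in 20 such groups. Gata4LKO GW3965 17, the library with the highest mitochondrial share, accounted for 4: Vtn at 14547 (others 23057 to 26447), Fgg at 86378 (others 38158 to 52029), F9 at 9964 (others 5762 to 6934) and Proc at 4390 (others 4902 to 5107). C1ra stood apart in 3 groups, at 2302 in control vehicle 3, 3344 in Gata4LKO vehicle 6 and 2206 in Gata4LKO GW3965 14. In control GW3965, Mbl1 was 2533 in library 10 and Mbl2 was 5035 in library 13. In Gata4LKO vehicle, F2 was 22661 in library 6, and library 5 was low for Cpb2 (3115) and Habp2 (2141). Pros1 was 1060 in Gata4LKO GW3965 16 (others 1522 to 1666), and F8 was 523 in control vehicle 1 (others 363 to 389).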

How the results depend on the processing

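No paired analysis was possible because the groups share no replicate numbers. Every alternative named here was planned, and none was added later. Over the 33 pairs of named member and comparison and their 601 alternative fits, 562 kept direction and side of the threshold, 18 fell short of it, 14 newly passed and 7 changed sign. The counts of members called were 2 for genotype with vehicle, 1 for genotype with GW3965, 3 for GW3965 in control, 3 for GW3965 in Gata4LKO, 6 for GW3965 in the mean of both genotypes and 2 for genotype in the mean of both treatments under array quality weights, where they had been 0, 0, 1, 0, 2 and 1; calls among all genes there were 193, 59, 247, 355, 667 and 191, where they had been 2, 8, 106, 33, 238 and 30. For GW3965 in control the count was 0 with a pseudocount of 0.5, with no filter, in the fit of only the groups compared and with edgeR, and 2 without the libraries over 10% mitochondrial and with DESeq2. Without those libraries it was 4 for GW3965 in the mean of both genotypes. DESeq2 called 1 for genotype with GW3965 and 2 for genotype in the mean. Leaving out 1 library gave 0 to 2 members for GW3965 in control, 0 to 2 for genotype in the mean of both treatments, 2 in each fit for GW3965 in the mean, and 0 elsewhere. The cause was not tested. The 7 sign changes were in differences far from the threshold: Cfb between genotypes with vehicle was 0.014 without Gata4LKO vehicle 6 (range with 1 library left out -0.70 to 0.014), Cfb with GW3965 in Gata4LKO 0.049 under array quality weights, and Cpb2 with GW3965 in control -0.0068 without the libraries over 10% mitochondrial. F11 between genotypes with GW3965 was 0.12 under array quality weights, 0.023 without the libraries over 10% mitochondrial, 0.07 without control GW3965 13 and 0.11 without Gata4LKO GW3965 16 (range with 1 library left out -0.18 to 0.11), against -0.04. At 11.8 to 22.05 M reads per library, the relative counting error was largest for the 4 members with the fewest reads, Cfb, Cfp, F8 and C2.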
